A study of Mus musculus with 6 samples.

Results

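The genes described here are 36 markers of skin cells that a sort for mast cells is meant to leave behind. They were taken by symbol from the 55809 gene rows of each library, and all 36 were found. By the cell type they mark, 14 are fibroblast and matrix genes, 8 epidermal, 5 endothelial, 5 pericyte and smooth muscle, 2 adipocyte and 2 skeletal muscle genes. They were matched by gene symbol, and the list was drawn up with earlier results of these data known. The cells came from mouse fetuses (genotype C57BL6J) at embryonic day 18.5, and poly-A RNA of the sorted cells was sequenced. In the prenatal stress group, dams aged 8 to 10 weeks were restrained under bright light 3 times a day for 30 minutes, from day 13.5 to 18.5 in the design text and from day 13 to 18 in the protocol. Control dams, of the same age, were left undisturbed. Minced skin was digested with enzymes, and cells positive for CD45, CD117 and ST2 and negative for F4/80 and CD64 were collected. Each group had 3 libraries, named here control 1 to 3 and stress 1 to 3. Each library was a pool of 4 mice, with both sexes used, so that 24 mice stand behind the 6 libraries. The labels are silent on the number of dams or litters behind a pool, and a p-value here reflects only how much pools differ.

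Fetal skin is built from an epidermis of keratinocytes over a dermis of collagen-producing fibroblasts, crossed by blood vessels and underlain by fat and a thin sheet of skeletal muscle. Mast cells lie in the dermis, close to vessels and nerves. Basal keratinocytes carry keratins 5, 14 and 15, and cells that leave the basal layer switch to keratins 1 and 10. Fibroblasts secrete fibrillar collagens and the small proteins that order them, and endothelial cells are held together by VE-cadherin and sense the growth factors VEGF and angiopoietin. In a bulk library, fewer cells of a type cannot be told apart from less RNA per cell.

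The 36 markers were a small share of each library. The libraries held 51710555 to 74735139 counts assigned to genes, and the markers took 0.0288% to 0.0464% of them. Their summed level was 283 to 491 CPM (counts per 1000000 of the library size, scaled with TMM factors), with 331, 342 and 283 CPM in control 1, 2 and 3 and 313, 491 and 305 CPM in stress 1, 2 and 3. Stress 2 was thus the highest, and the other 5 libraries lay close together. For scale, 10 mast cell markers summed to 58689 to 102413 CPM and 16 macrophage markers to 7251 to 11848 CPM. The transcripts of the sort markers were at 443 to 518 CPM for Ptprc (CD45), 1635 to 2324 for Kit (CD117) and 1329 to 2201 for Il1rl1 (ST2). The transcripts of the proteins selected against were present too, at 243 to 438 CPM for Adgre1 (F4/80) and 61.1 to 83.2 for Fcgr1 (CD64).

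Of the 36 markers, 30 passed the count filter and were tested with edgeR's quasi-likelihood test. Of these, 0 were called between the groups at an adjusted p below 0.05. Over all genes tested, 6.19% were called, with 4.34% higher and 1.85% lower under prenatal stress. Col3a1 and Fbn1 had an unadjusted edgeR p below 0.05, as did 4150 of all 16716 genes tested. That share also stands beside the counts of unadjusted p given for other lists below. The smallest adjusted p was 0.168, for Fbn1. DESeq2 and limma-voom also called 0 of the markers. Leaving out stress 3 gave 4 calls, all higher (Col3a1, Fbn1, Krt10 and Postn), in a fit that called 15.4% of all genes. With no filter on low counts, 4 were called higher (Col3a1, Dsp, Krt5 and Postn), beside 6.60% of all genes. The log2 fold change of stress over control was positive for 21 of the 30 and negative for 9, with a median of 0.30, beside -0.00387 over all genes tested. The groups did not overlap for 1 of the 30, Pdgfra, while they did not overlap for 30.6% of all genes tested. The 6 markers that did not pass the count filter were Twist1, Twist2, Krt14, Krt15, Trp63 and Dsp. The mean of Dsp, 0.521 CPM, was above that of Des, which was tested, at 0.343 CPM. Most Dsp reads lay in stress 1.

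**Figure D1:**
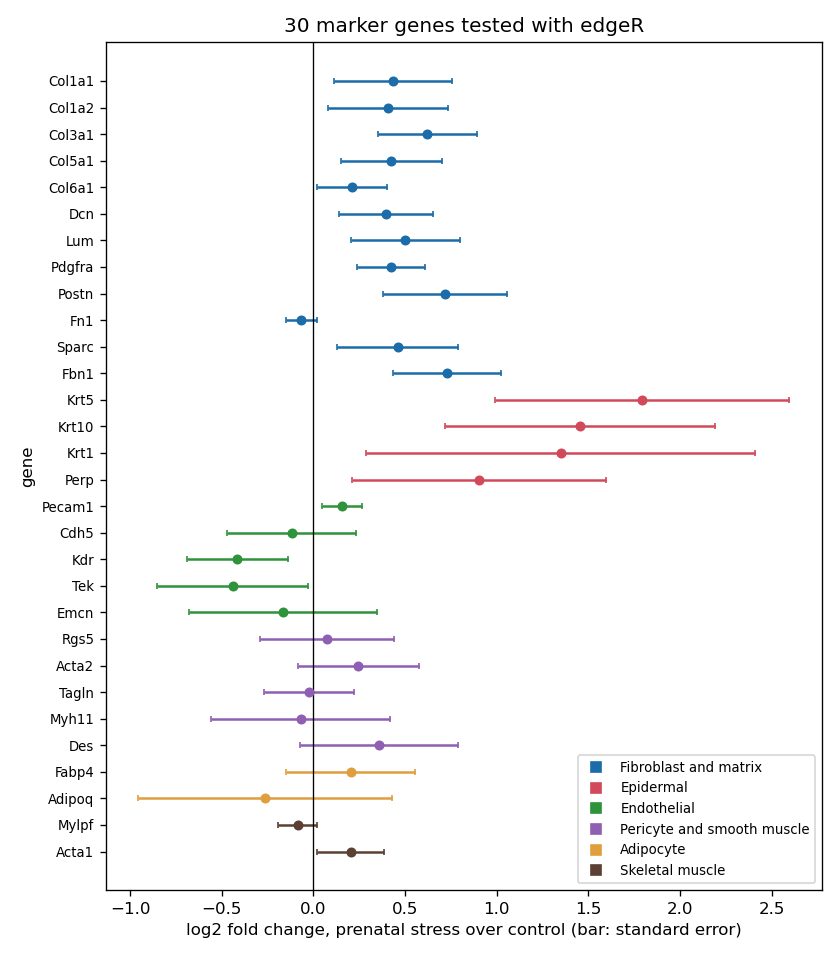
Log2 fold change of prenatal stress over control for the 30 marker genes tested (point: estimate of edgeR's fit; bar: standard error; colour: cell type). Fibroblast genes other than Fn1 lie right of 0, epidermal genes lie furthest right with the widest bars, and none of the 30 passed an adjusted p of 0.05.

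The markers varied widely between pools. The median coefficient of variation over the 6 libraries was 40.5% for the 30 markers tested and 12.1% for all genes tested, which were not matched to them for level. In the fibroblast, epidermal and adipocyte classes some genes had a single library at over 2 times the median of the other 5, while 0 of the endothelial, pericyte and skeletal muscle genes tested did. Stress 1 was the highest library for 8 of 8 epidermal genes. Stress 2 was the highest for 12 of 14 fibroblast genes and 2 of 2 adipocyte genes, and control 2 for 3 of 5 endothelial genes. Over all genes tested, the share with the highest value in a given library ran from 11.4% (control 1) to 21.5% (stress 2), with 21.0% in control 2 and 17.5% in stress 1.

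**Figure D2:**
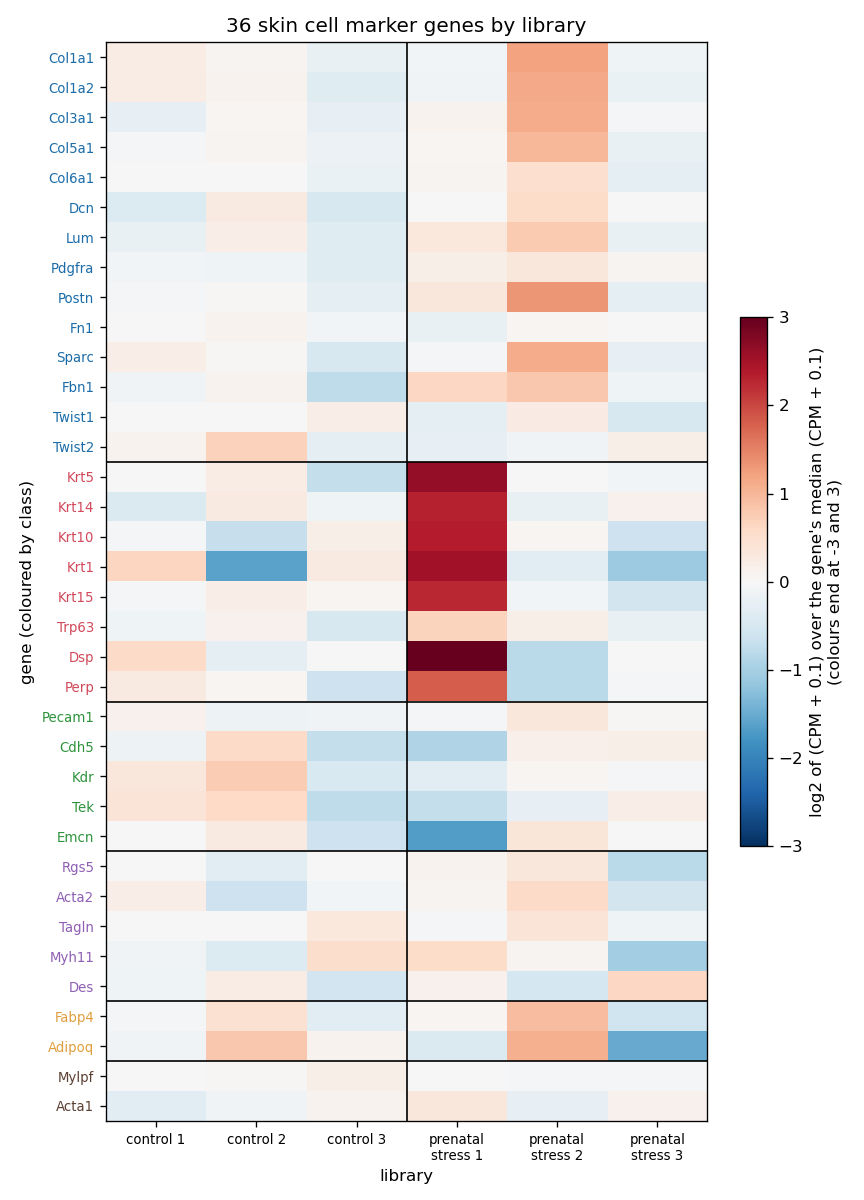
Level of each of the 36 marker genes (rows, coloured by cell type) in each library (columns), as the log2 ratio to the gene's median over the 6 libraries, with 0.1 CPM added to both; colours end at -3 and 3. Stress 2 is red through most fibroblast rows, but not that of Twist2, and stress 1 through the epidermal rows, while Fn1, Pecam1 and Mylpf are pale across all libraries.

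Among the fibroblast genes, the fibrillar collagens were high in stress 2. Col1a1, which encodes the main chain of type I collagen, was at 35.6, 32.3 and 26.1 CPM in control 1, 2 and 3 and at 29.0, 70.4 and 28.0 CPM in stress 1, 2 and 3. Col1a2, the partner chain in the same triple helix, was at 32.9, 30.4 and 21.9 CPM in the controls and 26.1, 62.3 and 24.7 CPM in the stress libraries. Col3a1, the chain of type III collagen that is plentiful in fetal skin, was at 25.6, 31.4 and 25.6 CPM and at 32.6, 65.3 and 29.0 CPM. For all 3, stress 2 stood alone at 2.25 to 2.43 times the median of the other 5 libraries, and the remaining stress libraries lay within or close to the control range. The fold changes on the log2 scale were 0.44 ± 0.32 (SE, edgeR adjusted p = 0.435) for Col1a1, 0.41 ± 0.33 (0.480) for Col1a2 and 0.62 ± 0.27 (0.195) for Col3a1. The ratio of Col1a2 to Col1a1 reads was nearly fixed, between 0.840 and 0.941 in every library, stress 2 included at 0.885.

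The start regions of a pair of these collagen genes are shown because both genes had their highest level in the same library. Each run is the 150 bases before the transcription start site, 5′ to 3′ on the gene's strand, from RefSeq on GRCm38.p6. Capitals mark the letters CCAAT or TATAAA. The Col1a2 run lies at chr6:4505468-4505617 (+ strand) and the Col3a1 run at chr1:45311388-45311537 (+ strand).
Col1a2: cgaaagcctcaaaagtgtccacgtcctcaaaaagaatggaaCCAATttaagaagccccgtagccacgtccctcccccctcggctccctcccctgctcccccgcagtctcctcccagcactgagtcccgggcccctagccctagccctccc
Col3a1: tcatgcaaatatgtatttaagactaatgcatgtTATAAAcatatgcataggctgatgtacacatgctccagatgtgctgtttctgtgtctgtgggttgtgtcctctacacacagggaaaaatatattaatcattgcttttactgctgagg
In Col1a2, CCAAT began at position -109 from the start site and, on the opposite strand (ATTGG), at position 1, past the run shown. TATAAA began at -117 in Col3a1. Both motifs, and GCCNNNGGC, were searched on both strands from 250 bases before to 50 bases after the start site. Promoters were found for 23 of the 36 markers. Of 11 fibroblast promoters in the table, 4 held CCAAT, 3 held TATAAA and 4 held GCCNNNGGC, and over all 32851 promoters the shares were 37.41%, 13.62% and 16.59%. Postn was entered with more than 1 start site, and it adds to each of these 3 fibroblast counts. A match of letters is a description and says nothing of whether a factor binds there.

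Other matrix genes had stress 2 as the highest library as well. Postn, which encodes periostin of the dermal matrix, was at 7.85, 8.31 and 6.60 CPM in the controls and 10.2, 20.6 and 6.71 CPM in the stress libraries (log2 fold change 0.72 ± 0.34, edgeR adjusted p = 0.227). Sparc, a collagen-binding secreted protein, was at 18.0, 16.0 and 11.1 CPM and at 15.1, 33.8 and 13.2 CPM (0.46 ± 0.33, adjusted p = 0.423). Stress 2 stood at 2.62 times the median of the others for Postn and 2.23 times for Sparc, and stress 3 lay in or near the range of the controls for both. Col5a1, a chain of the collagen that starts fibril assembly, was at 4.96, 5.51 and 4.56 CPM and at 5.39, 10.3 and 4.42 CPM. Col6a1, of the beaded collagen around cells, was at 3.87, 3.93 and 3.38 CPM and at 4.14, 5.58 and 3.22 CPM. The fold changes were 0.42 ± 0.28 for Col5a1 and 0.21 ± 0.19 for Col6a1, with edgeR adjusted p of 0.375 and 0.534, and the groups overlapped for both.

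The proteoglycan and microfibril genes had lower CPM than the collagens of types I and III. Dcn (decorin), which binds collagen fibrils, was at 1.46, 2.38 and 1.37 CPM in the controls and 1.98, 2.91 and 1.94 CPM in the stress libraries. Lum (lumican), of the same leucine-rich family, was at 0.963, 1.31 and 0.863 CPM and at 1.45, 2.04 and 0.953 CPM. Their log2 fold changes were 0.40 ± 0.26 (edgeR adjusted p = 0.373) and 0.50 ± 0.30 (0.327). Fbn1 (fibrillin 1), which builds elastic microfibrils, was at 1.87, 2.16 and 1.14 CPM and at 3.15, 3.64 and 1.83 CPM. Here both stress 1 and stress 2 lay above every control, and stress 3 did not (0.73 ± 0.29, adjusted p = 0.168). Of the exon bases of Fbn1, 20.1% overlap a gene on the opposite strand (Gm9913), and the strand setting of the counting is not given.

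Pdgfra was the marker whose groups did not overlap. This receptor for platelet-derived growth factor marks dermal fibroblasts, and it was at 1.13, 1.11 and 0.915 CPM in the controls and 1.39, 1.56 and 1.29 CPM in the stress libraries. Its log2 fold change was 0.42 ± 0.19, with an edgeR adjusted p of 0.202 that ran from 0.177 to 0.447 when each library was left out in turn. The transcription factors Twist1 and Twist2, of the early dermal lineage, stayed at 0.0719 to 0.185 CPM and 0.0352 to 0.170 CPM, and neither was tested.

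Fn1 was even across the libraries. It encodes fibronectin, a matrix glycoprotein that fibroblasts, macrophages and other cells make. Its level was 135, 142 and 126 CPM in the controls and 113, 139 and 132 CPM in the stress libraries (log2 fold change -0.07 ± 0.08, edgeR adjusted p = 0.671). Stress 2 lay inside the range of the controls, and the coefficient of variation was 7.98%, below that of every other fibroblast gene. The ratio of Fn1 to Col1a1 reads was 3.78 to 4.81 in 5 libraries and 1.98 in stress 2. Together with Pecam1, described with the endothelial genes, Fn1 held 35.9% (stress 2) to 54.1% (control 3) of the reads of all 36 markers.

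Without Fn1, the fibroblast genes summed to 134, 135 and 104 CPM in the controls and 131, 279 and 115 CPM in the stress libraries. Without stress 2 the means were 124 CPM in the controls and 123 CPM in the stress libraries. In the edgeR fit, the median log2 fold change of the 12 fibroblast genes tested was 0.43 with all libraries, with 11 positive, and 0.0619 without stress 2, with 6 positive and 6 negative. Single genes then ran from -0.17 to 0.52, with Fbn1 at 0.52 and Pdgfra at 0.34. As a description over the 6 libraries, which share depth and the raised stress 2 library, the median pairwise Pearson r of log2 CPM was 0.89 among the 11 tested genes without Fn1 (55 pairs), and 0.29 between Fn1 and those 11.

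**Figure D3:**
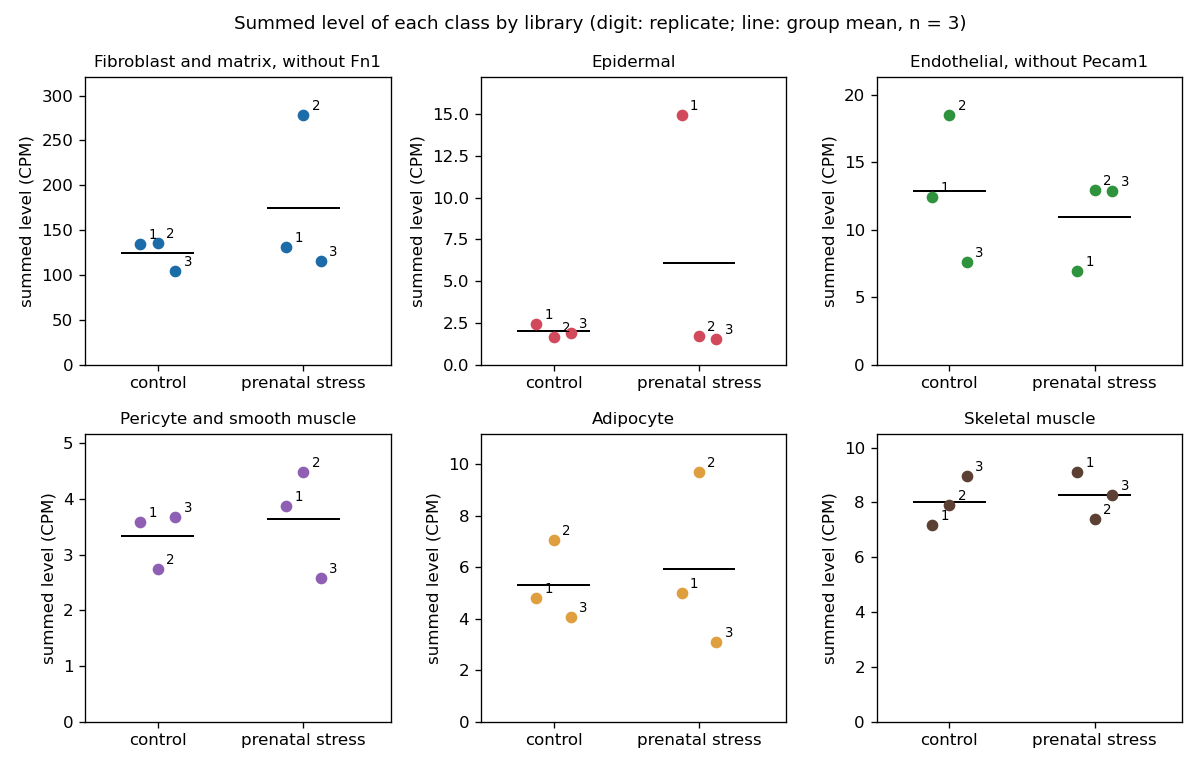
Summed level (CPM) of each class in each library (points, with the replicate number; line: group mean, n = 3 libraries), with Fn1 left out of the fibroblast sum and Pecam1 out of the endothelial sum. Stress 2 stands at 279 CPM in the fibroblast panel and stress 1 at 15.0 CPM in the epidermal panel, and the other libraries of both groups overlap.

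Further fibroblast genes that are not among the 36 had the same library on top. Of 20 such genes, 13 were highest in stress 2, and their sum was 63.9 CPM there and 33.1 to 41.4 CPM in the other libraries. Of the 17 tested, 0 were called higher and 1 lower, with a median log2 fold change of 0.24. The most abundant were Col6a3, at 5.24 ± 0.158 CPM in controls and 6.43 ± 2.46 CPM under stress (SD, n = 3), and Col5a2, at 4.21 ± 0.466 and 5.67 ± 3.07 CPM. The called gene was Fap, a surface protease of activated fibroblasts, which fell from 1.88 ± 0.233 to 1.12 ± 0.140 CPM (log2 fold change -0.75, edgeR adjusted p = 0.0496). That call was made in 1 of the 6 fits with a library left out, and its adjusted p reached 0.193.

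Markers of Schwann cells and melanocytes, other cells of the skin, were also high in stress 2. All 8 Schwann cell markers were highest there, and without the most abundant, Mbp, they summed to 19.0 CPM in stress 2 and 10.0 to 13.6 CPM elsewhere. With edgeR 0 of 7 passed, and 3 had an unadjusted p below 0.05. Of 7 melanocyte markers, 6 were highest in stress 2, with a sum of 71.6 CPM, beside 40.3 and 29.2 CPM in stress 1 and 3 and 14.3 to 20.1 CPM in the controls. Of the 6 melanocyte markers tested, 6 had a positive log2 fold change and 5 were called higher with edgeR. The groups did not overlap for 6 of these 6, beside 30.6% of all genes tested. Among those called, Pmel, of the pigment granule fibrils, rose from 5.40 ± 1.09 to 14.6 ± 6.48 CPM (SD, n = 3, edgeR adjusted p = 0.0263). Dct, an enzyme of melanin synthesis, rose from 8.01 ± 2.08 to 23.8 ± 11.4 CPM (0.0286). Without 1 library the adjusted p of Pmel and Dct reached 0.128 and 0.144. Whether these cells had a part in the fibroblast values was not tested.

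The epidermal genes were low in every library but 1. A count of 3 corresponds to 0.0391 to 0.0595 CPM. The 8 genes summed to 2.42, 1.67 and 1.87 CPM in the controls and 15.0, 1.71 and 1.51 CPM in the stress libraries, so that stress 1 stood at 8.78 times the median of the other 5. In reads, stress 1 held 756 and the others 84 to 186. Leaving stress 1 out, the mean was 1.98 CPM in the controls and 1.61 CPM in the stress libraries.

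Markers of both epidermal layers were highest in stress 1. Krt5, the type II keratin of basal cells, was at 0.351, 0.425 and 0.176 CPM in the controls and 2.70, 0.352 and 0.324 CPM in the stress libraries. The 136 Krt5 reads of stress 1 give an exact Poisson 95% interval of 2.26 to 3.19 CPM, and the highest bound among the other libraries was 0.627 CPM, where such intervals cover counting error only. Krt14, the type I partner of Krt5, was at 0.0651 to 0.170 CPM in the other libraries and 1.01 CPM in stress 1. Krt15, of basal cells and hair follicle progenitors, had 3, 4 and 3 reads in the controls and 30, 2 and 0 in the stress libraries, and the exact Poisson upper bound of the 0 is 0.0663 CPM. Krt10, of the cells above the basal layer, was at 0.651, 0.391 and 0.792 CPM in the controls and 3.94, 0.723 and 0.414 CPM in the stress libraries. Krt1, which pairs with Krt10, was at 2.22 CPM in stress 1 and 0.0340 to 0.534 CPM in the others. Basal keratin reads (Krt5, Krt14 and Krt15) stood to those of Krt1 and Krt10 as 0.698 in stress 1, inside the range of 0.284 to 1.56 of the other libraries.

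The junction genes had the same library on top. Dsp (desmoplakin), which ties keratin filaments to desmosomes, had 132 reads in stress 1 (2.62 CPM, exact Poisson 95% interval 2.19 to 3.10) and 1 to 16 reads in the others, 24.8 times their median. Perp, a desmosome protein under the control of p63, was at 0.547, 0.459 and 0.246 CPM in the controls and 1.78, 0.204 and 0.414 CPM in the stress libraries. Trp63, which encodes p63, the master regulator of stratified epithelium, had 6 reads in stress 1 and 0 to 3 in the others. The exact Poisson intervals of these counts overlapped. Such overlap is not a test of a difference, so no excess is stated for this gene alone.

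With edgeR, 0 of the 4 epidermal genes tested were called, and 0 had an unadjusted p below 0.05. For these 4, stress 1 stood at 4.31 (Perp) to 9.97 (Krt1) times the median of the other 5 libraries. For the 4 not tested it stood at 24.8 (Dsp), 15.2 (Krt15), 9.57 (Krt14) and 4.57 (Trp63) times. The log2 fold changes were 1.80 ± 0.80 (SE, edgeR adjusted p = 0.206) for Krt5, 1.46 ± 0.74 (0.259) for Krt10, 1.35 ± 1.06 (0.466) for Krt1 and 0.91 ± 0.69 (0.452) for Perp. Without stress 1 they were 0.0748, -0.11, -1.06 and -0.45. A small part of the Krt5 and Krt14 transcripts is shared with other keratins: 5.18% of the 75-base windows of Krt5 occur in Krt6a, Krt6b, Gm5414 or Gm5478, and 5.71% of those of Krt14 in Krt16.

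The start regions of Krt10 and Dsp are shown, from above the basal layer and from the junctions, since both were highest in stress 1. The Krt10 run lies at chr11:99389365-99389514 (- strand) and the Dsp run at chr13:38151144-38151293 (+ strand), each again the 150 bases before the start site on GRCm38.p6. Capitals mark 3 motifs. ATTGG is CCAAT read on the opposite strand. TATAAA is the TATA box. GCCNNNGGC is a palindrome recognised by AP-2 factors.
Krt10: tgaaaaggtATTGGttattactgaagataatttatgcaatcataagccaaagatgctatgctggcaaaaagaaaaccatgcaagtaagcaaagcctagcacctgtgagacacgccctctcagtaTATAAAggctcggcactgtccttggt
Dsp: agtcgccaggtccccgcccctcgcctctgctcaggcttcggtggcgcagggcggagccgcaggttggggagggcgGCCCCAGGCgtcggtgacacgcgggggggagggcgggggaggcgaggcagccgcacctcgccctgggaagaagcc
Krt10 held ATTGG at position -141 and TATAAA at -26, and Dsp held GCCCCAGGC at -75. These motifs did not overlap. Promoters of 4 epidermal markers were in the table, and each of the 3 motifs was found in 1 of them.

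**Figure D4:**
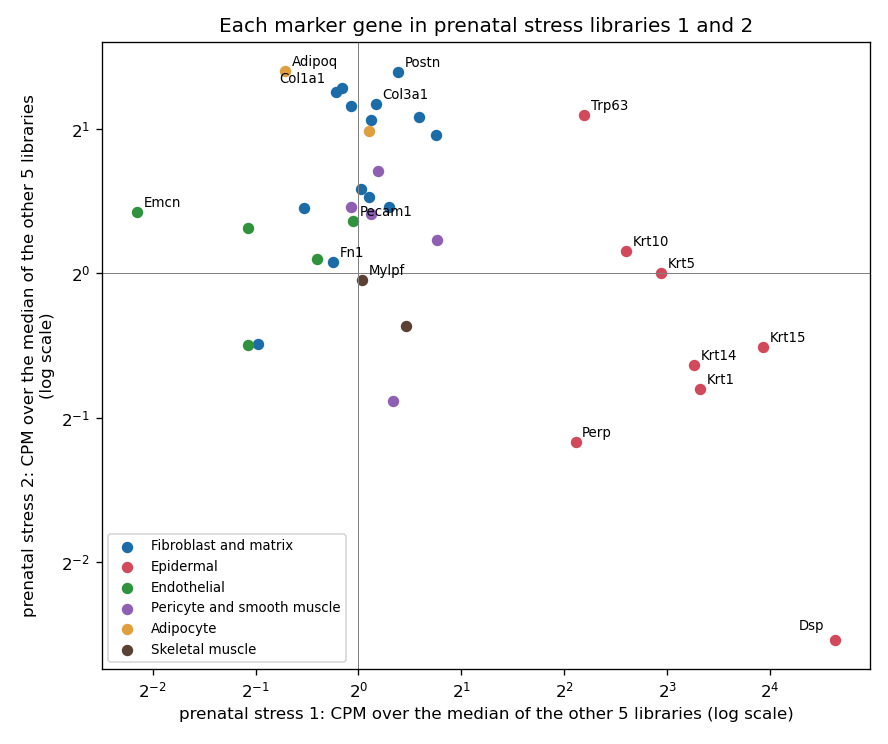
CPM in stress 1 (horizontal axis) and stress 2 (vertical axis), each over the median of the other 5 libraries, for the 36 marker genes (log scales, colour: cell type). Epidermal genes extend to the right, up to 24.8 for Dsp, and most fibroblast and adipocyte genes lie upward, while Fn1, Pecam1 and Mylpf lie near 1 on both axes.

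Further epidermal genes were mixed. Of 20 such genes, 9 were highest in stress 1, among them the keratinocyte genes Krt77 at 1.33 CPM (0 to 0.0680 elsewhere), Krt17 at 0.654 CPM (0 to 0.0927) and Krtdap at 0.337 CPM (0 to 0.0680), which were named after their values were seen. By contrast Jup (plakoglobin), a junction protein that many cell types share, was at 56.4 ± 2.88 CPM in controls and 57.0 ± 2.08 CPM under stress (SD, n = 3). Of the 10 tested, 1 was called higher and 0 lower, with a median log2 fold change of 0.15. The called gene was Lgals7 (galectin 7), known from stratified epithelia, which rose from 41.3 ± 8.86 to 75.5 ± 6.94 CPM (0.87 on the log2 scale, edgeR adjusted p = 0.0150). Its values were 47.4, 31.2 and 45.5 CPM in the controls and 69.4, 83.1 and 74.2 CPM in the stress libraries, and stress 1 was the lowest of the stress libraries. Without stress 2 its adjusted p was 0.0642, and it passed in the other 5 fits.

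Among the endothelial genes, Pecam1 was the most abundant. Pecam1 (CD31) is an adhesion molecule of endothelial cell borders that leukocytes and platelets also carry. Its level was 31.7, 26.4 and 27.3 CPM in the controls and 28.6, 36.8 and 29.8 CPM in the stress libraries (log2 fold change 0.16 ± 0.11, edgeR adjusted p = 0.407). Cdh5 (VE-cadherin), a junction protein more restricted to endothelium, was at 6.31, 10.7 and 4.28 CPM and at 3.73, 7.85 and 7.97 CPM. Kdr, the main VEGF receptor of endothelial cells, was at 4.24, 5.66 and 2.39 CPM and at 2.60, 3.43 and 3.20 CPM. Control 2 was the highest library for both, and the groups overlapped. The ratio of Pecam1 to Cdh5 reads ran from 2.48 in control 2 to 7.69 in stress 1.

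Tek and Emcn were below 1 CPM on average. Tek, the angiopoietin receptor, was at 0.422 to 1.24 CPM in the controls and 0.436 to 0.917 CPM in the stress libraries. Emcn (endomucin), of capillary and venous endothelium, was at 0.475 to 0.969 and 0.178 to 1.04 CPM. The log2 fold changes were -0.12 ± 0.35 for Cdh5, -0.41 ± 0.27 for Kdr, -0.44 ± 0.41 for Tek and -0.16 ± 0.51 for Emcn, and the smallest edgeR adjusted p was 0.381, for Kdr. Without Pecam1, the endothelial genes summed to 12.4, 18.5 and 7.57 CPM in the controls and 6.94, 13.0 and 12.9 CPM in the stress libraries. The log2 ratio of the group means of the sum was 0.0460 with Pecam1 and -0.23 without it. Leaving out control 2 as well turned that direction, with means of 9.99 CPM in the controls and 10.9 CPM in the stress libraries.

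Of 15 further endothelial genes, 8 were highest in control 2. Of the 14 tested, 1 was called higher and 1 lower, with a median log2 fold change of -0.13. Erg, a transcription factor of endothelium and of some blood cells, rose from 169 ± 10.7 to 230.4 ± 35.99 CPM (0.45, edgeR adjusted p = 0.0445). Eng (endoglin), a co-receptor of the TGF beta family, fell from 6.84 ± 0.782 to 4.42 ± 0.517 CPM (-0.63, adjusted p = 0.0283). Egfl7, secreted by endothelium, was at 5.95 ± 0.191 and 5.49 ± 0.574 CPM (SD, n = 3). With a library left out, Erg was called in 2 of 6 fits and Eng in 1 of 6, with adjusted p of up to 0.183 and 0.123. Red cell and neutrophil markers, which come with blood, were highest in control 2 for 7 of 8 and 5 of 8 genes. The red cell markers summed to 19.7 CPM there and 6.16 to 9.70 CPM elsewhere, and the neutrophil markers to 99.1 CPM and 7.76 to 39.8 CPM. Without Mpo, the most abundant neutrophil marker, the latter were 24.6 CPM and 3.28 to 16.4 CPM. With edgeR 0 of 5 passed in either list, and 2 and 0 of them had an unadjusted p below 0.05. Their part in the endothelial values was not tested.

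The pericyte and smooth muscle genes were low in all libraries. Acta2 (smooth muscle actin) was at 1.56, 0.833 and 1.25 CPM in the controls and 1.43, 2.04 and 0.881 CPM in the stress libraries (log2 fold change 0.24 ± 0.33, edgeR adjusted p = 0.695). Rgs5, a regulator of G protein signalling in pericytes, was at 0.270 to 0.723 CPM over the 6 libraries, Myh11, the smooth muscle myosin, at 0.180 to 0.753 CPM, and Des (desmin) at 0.194 to 0.575 CPM. Tagln (transgelin), of the contractile filaments, was at 0.665 to 1.00 CPM. Of its exon bases, 67.9% overlap genes on the opposite strand (Pcsk7 and Gm48529), so the source of its reads is uncertain. The 5 genes summed to 3.58, 2.74 and 3.68 CPM in the controls and 3.87, 4.49 and 2.57 CPM in the stress libraries, and their adjusted p were 0.654 to 0.965. Of 14 further genes of these cells, 9 were tested and 0 were called, 2 with an unadjusted p below 0.05, and the median log2 fold change was -0.19. Pdgfrb, a receptor listed here with the pericyte genes, was far above the rest. It was at 81.5 ± 8.07 CPM in controls and 71.5 ± 9.81 CPM under stress, followed by Smtn (smoothelin) at 10.5 ± 0.195 and 9.34 ± 0.949 CPM (SD, n = 3). Without Pdgfrb, the other 13 further genes summed to 20.9 to 26.6 CPM over the libraries. Which cells the Pdgfrb reads came from was not tested.

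The adipocyte genes were highest in stress 2, with control 2 next. Fabp4, a fatty acid carrier of fat cells that some macrophages and endothelia also express, was at 4.44, 6.31 and 3.64 CPM in the controls and 4.76, 8.79 and 3.00 CPM in the stress libraries (log2 fold change 0.20 ± 0.35, edgeR adjusted p = 0.771). Adipoq (adiponectin), a hormone of mature fat cells, was at 0.351, 0.748 and 0.422 CPM and at 0.258, 0.927 and 0.0719 CPM (-0.26 ± 0.69, adjusted p = 0.851). Both had stress 3 as the lowest library, and the groups overlapped. Without stress 2 the log2 fold changes were -0.31 for Fabp4 and -1.63 for Adipoq, and the class means were 5.30 CPM in the controls and 4.04 CPM in the stress libraries. Of 10 further genes, 5 were highest in stress 2, but the sum of the 10 was not. That sum was 138, 164 and 151 CPM in the controls and 108, 114 and 138 CPM in the stress libraries. Of the 5 tested, 4 had a negative log2 fold change (median of the 5 -0.32), and 0 were called higher and 1 lower. The called gene was Fabp5, a fatty acid carrier found in many cell types, which fell from 43.3 ± 1.85 to 34.8 ± 2.17 CPM (-0.32, adjusted p = 0.0300), a call made in 1 of 6 fits with a library left out (adjusted p up to 0.102). Lpl, the lipase that frees fatty acids from lipoproteins, was at 94.4 ± 11.3 and 73.8 ± 17.3 CPM (SD, n = 3; adjusted p = 0.194).

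The skeletal muscle genes were the most even. Mylpf, a light chain of fast muscle myosin, was at 4.28, 4.47 and 4.93 CPM in the controls and 4.40, 4.27 and 4.21 CPM in the stress libraries, a coefficient of variation of 5.97%, the lowest of the 36. Acta1 (skeletal muscle actin) was at 2.90, 3.43 and 4.01 CPM and at 4.72, 3.12 and 4.06 CPM. The log2 fold changes were -0.09 ± 0.11 (edgeR adjusted p = 0.662) and 0.20 ± 0.18 (0.528). Neither stress 1 nor stress 2 stood apart in the sum of both, which was 7.19 to 9.12 CPM. Of 14 further muscle genes, 12 were tested and 0 were called, 2 with an unadjusted p below 0.05, with a median log2 fold change of -0.03. The most abundant were Tnni2, a troponin of fast fibres, at 2.67 ± 0.262 and 2.30 ± 0.222 CPM, and Ckm, muscle creatine kinase, at 2.37 ± 0.585 and 2.70 ± 0.258 CPM (SD, n = 3).

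To compare genes with each other, levels were also taken per kilobase of transcript (RPKM, median over the 6 libraries). Fn1 led at 16.0 RPKM (13.6 to 17.1 over the libraries), followed by Pecam1 at 8.89 and Sparc at 6.76. Sparc ranged from 4.84 to 14.7 over the libraries and overlapped Fn1, Pecam1 and the next 5 genes. Then came Mylpf at 5.67, Col3a1 at 5.43, Col1a2 at 5.29, Col1a1 at 5.17 and Fabp4 at 5.13. The range over libraries of these 5 overlapped, so that their order is not resolved. On this scale Mylpf, a short transcript, stood beside the collagens although its CPM was several times lower. Postn (2.53), Cdh5 (1.77) and Dcn (1.12) were in the middle. Krt10 was the highest of the epidermal genes at 0.328, and Dsp and Trp63 were the lowest of all 36, at 0.0111 and 0.00819 RPKM.

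**Figure D5:**
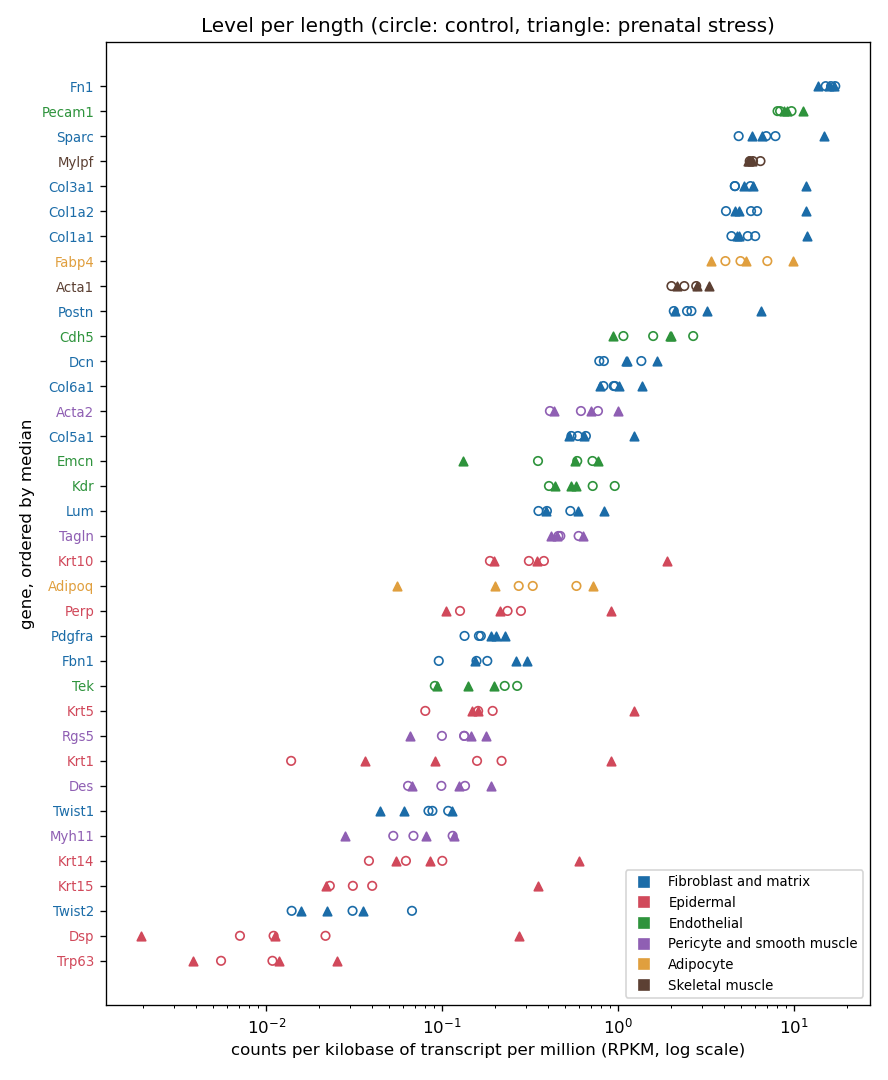
Level per length (RPKM, log scale) of the 36 marker genes, ordered by their median (circles: control libraries; triangles: prenatal stress libraries; colour: cell type; values of 0 are not drawn). Fn1 and Pecam1 are at the top with narrow spread, and the epidermal genes lie low with the stress 1 triangle far to the right of the other points.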

How the data were processed

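The authors deposited, per library, the raw count of reads for each gene symbol, not normalized. Stranded poly-A paired-end libraries were made, per the labels' protocols. Per the submitters' processing notes, FastQC, STAR 2.4 and HTSeq 0.9.1 were used, and both GRCm39 and mm10 appear there without a stated role. For the strand setting, annotation and filters, the sources used here give nothing. The 5 rows naming no gene (18.6% to 20.3% of reads) were left out. Counts were filtered with edgeR 4.0.16 (filterByExpr, minimum count 10, leaving 16716 genes), scaled by TMM and tested with glmQLFTest (R 4.3.3), with Benjamini-Hochberg adjustment over all genes at 0.05. The test was tried on simulated counts. CPM are counts per 1000000 of the TMM-scaled library size. RPKM, exon overlap and shared 75-base windows use GENCODE M21 transcripts, and promoters use RefSeq, both on GRCm38. Alternatives tried were no filter, a stricter filter (10 counts in 3 libraries and a mean of 1 CPM), scaling by RLE, by upper quartiles or by totals only, DESeq2 1.42.0, limma-voom 3.58.1, a replicate block, each library left out, and class sums without the most abundant gene. The markers and further lists were chosen with earlier results of these data known. Every marker with a mean of at least 1 CPM is given in every library; from each further list the 2 most abundant and up to 3 called genes could be named, and genes outside this rule are marked as such.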

Additional observations from a re-analysis of the deposited data

How the results depend on the processing

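Of the markers, 0 were called with edgeR in the reported fit, 4 with no filter (Col3a1, Dsp, Krt5 and Postn), 1 with the replicate number as a block (Fbn1, adjusted p = 0.0496), and 0 to 4 with a library left out. The 4 came without stress 3 (Col3a1, Fbn1, Krt10 and Postn), a fit in which 15.4% of all genes were called. Of the further skin genes, 5 were called, 12 with no filter, 8 with DESeq2, 3 with the replicate block and 0 to 12 with a library left out (0 without stress 2, 12 without stress 3). Over all genes, 1035 were called, 1933 with no filter, 1882 with DESeq2, 622 with the block and 196 to 2647 with a library left out. Library totals alone shifted the median of all genes by -0.12 and called 2085, of which 26.5% were higher, against 70.0% with TMM. For the 30 markers tested in the reported fit, 409 estimates were made under alternatives. Of these, 401 kept their side of the threshold and 8 passed it. The Dsp call with no filter is not among them, since Dsp was not tested in the reported fit. The log2 ratio of group means of the epidermal sum was 1.61, and -0.30 to 2.07 with a library left out. That of the endothelial sum was -0.23 without Pecam1 and that of the skeletal muscle sum 0.20 without Mylpf, beside 0.0460 and 0.0436; the adipocyte sum went from 0.16 to -0.28 without Fabp4 and the fibroblast sum from 0.23 to 0.49 without Fn1. Same-numbered libraries had correlated deviations of r = 0.095, -0.019 and 0.068 across genes, all below 0.1, so the numbers were not read as pairs. Below 0.0391 to 0.0595 CPM, by library, a value rests on under 3 reads, and differences there were not detectable.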

Other observations

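Other immune markers in the same libraries gave these values. Of 10 mast cell markers tested, 10 had a positive log2 fold change under prenatal stress. With edgeR 6 were called higher and 0 lower. Fcer1a, the alpha chain of the high-affinity IgE receptor, went from 5.76 ± 0.454 to 27.6 ± 11.2 CPM (SD, n = 3, edgeR adjusted p = 0.00666). With each library left out in turn, Fcer1a and Mcpt4 were called in 6 of 6 fits and Ms4a2 in 5, while Il1rl1, Cpa3 and Cma1 were called in 1 each, with adjusted p of up to 0.113, 0.0864 and 0.141. Of 16 macrophage markers, 13 had a negative log2 fold change (median -0.24) and 14 were not called. The stress libraries differed, with sums of 7907, 7251 and 11848 CPM in stress 1, 2 and 3. Stress 3 was thus above every control, of which control 2 was the highest at 11227 CPM. Cd68 rose from 155 ± 6.42 to 200 ± 23.9 CPM (edgeR adjusted p = 0.0449) and Cx3cr1 fell from 430.2 ± 32.2 to 295 ± 19.1 CPM (0.00912). Cx3cr1 was called in 6 of 6 fits with a library left out and Cd68 in 2 of 6, with an adjusted p of up to 0.141. Of 6 T cell and innate lymphoid markers tested, 5 had a negative log2 fold change (median of the 6 -1.78), and 1 was called higher and 1 lower. Without Il7r, the list summed to 28.0 ± 10.1 CPM in controls and 13.7 ± 2.33 CPM under stress (SD, n = 3). Il7r, the interleukin 7 receptor, rose from 22.0 ± 4.01 to 54.1 ± 4.79 CPM (edgeR adjusted p = 0.00196). Trbc2, a T cell receptor constant gene, fell from 4.85 ± 4.92 to 0.285 ± 0.154 CPM (0.0298), with control 1 at 10.4 CPM and the other controls at 3.06 and 1.07 CPM. With a library left out, Il7r was called in 6 of 6 fits and Trbc2 in 3 of 6 (adjusted p up to 0.107), and with limma-voom Trbc2 had an adjusted p of 0.133.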
